A study of Homo sapiens with 6 samples.

Results

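Transcripts of p53 target genes were followed in PC3-ML cells, which come from the PC-3 human prostate cancer line, after CDK4 and CDK6 were inhibited with PD 0332991 (palbociclib). The set comprised 32 genes chosen by name, with earlier results of these data known. It held the p53 relatives TP63 and TP73. The others were genes of p53 feedback, cell cycle arrest and stress, cell death and DNA repair that p53 is known to activate. Of the 32 genes, 28 had a transcript cluster named for that gene alone and were analysed, out of 22375 genes tested. The other 4, TP63, BTG2, FDXR and BBC3 (whose cluster also carried microRNA symbols), were not analysed here. The treated arrays were 3 of cells given 500 nM PD 0332991 in DMSO for 24 h, and the vehicle arrays were 3 of cells given DMSO alone. Both groups were the same line grown in serum, and since no label states that replicates are independent cultures, every p-value measures only the spread between these arrays, which may be technical.

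The protein p53 is a transcription factor that damaged or stressed cells stabilise. It binds DNA as a tetramer and switches on genes that stop the cell cycle, repair DNA or start apoptosis, and also MDM2, whose product marks p53 for destruction and so closes a feedback loop. PC-3 cells are known to lack functional p53, and several of these genes are known to answer also to other regulators, among them the p53 relatives, E2F factors and stress-responsive factors.

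The labelled cell type showed the markers of an epithelial line. KRT8, KRT18, KRT19, EPCAM and CDH1 had group means of 6.57 to 12.64 with PD 0332991 and 6.49 to 12.23 with DMSO (log2 expression), all above the median of gene means, 5.35. KLK3, KLK2 and TMPRSS2, androgen-responsive luminal genes, lay below that median, as did all 4 leukocyte markers measured and 4 of 5 fibroblast markers, PDGFRA being the exception. The 6 genes kept beside the set as markers of cycling cells (MKI67, TOP2A, CCNA2, CDK1, MCM2 and PCNA) all fell, by 1.57-fold for MCM2 to 22.4-fold for MKI67. Array medians over the genes tested lay between 5.33 and 5.37. On a log2 scale a difference of 1 is a doubling of signal, and with 3 arrays per group the number of arrays limits the precision.

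The 28 genes did not move as a block. With PD 0332991, ZMAT3, TP53INP1 and TIGAR rose and POLH, DDB2, PPM1D and APAF1 fell, while 21 did not pass the threshold, which was a limma adjusted p under 0.05 over all genes tested. The share called was 25% of the set, against 11.3% of all genes. Higher calls made up 10.7% of the set, against 5.57% of all genes, and lower calls 14.3%, against 5.74%. The set was brighter than genes at large, with 6 of the 28 below the median of gene means. With genes of low level left out of the fit, 22.0% of 14075 genes were called, and in the set 4 rose and 5 fell. TP73 and SPATA18 also left that fit, so these counts are not out of 28. The part of brightness in the shares was not tested. With all genes in the fit, 49.3% of calls were higher, but 37.5% after each array was centred on its median over all transcript clusters. After that centring 1 gene of the set (ZMAT3) was called higher and 4 lower. The median log2 change of the set was -0.00605, against 0.0207 over all genes, and the median size of the change, sign ignored, was 0.12, against 0.076. By role, 2 of 3 repair genes fell, 3 of 8 arrest and stress genes rose, and 1 of 5 feedback genes and 1 of 11 death genes fell.

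**Figure D1:**
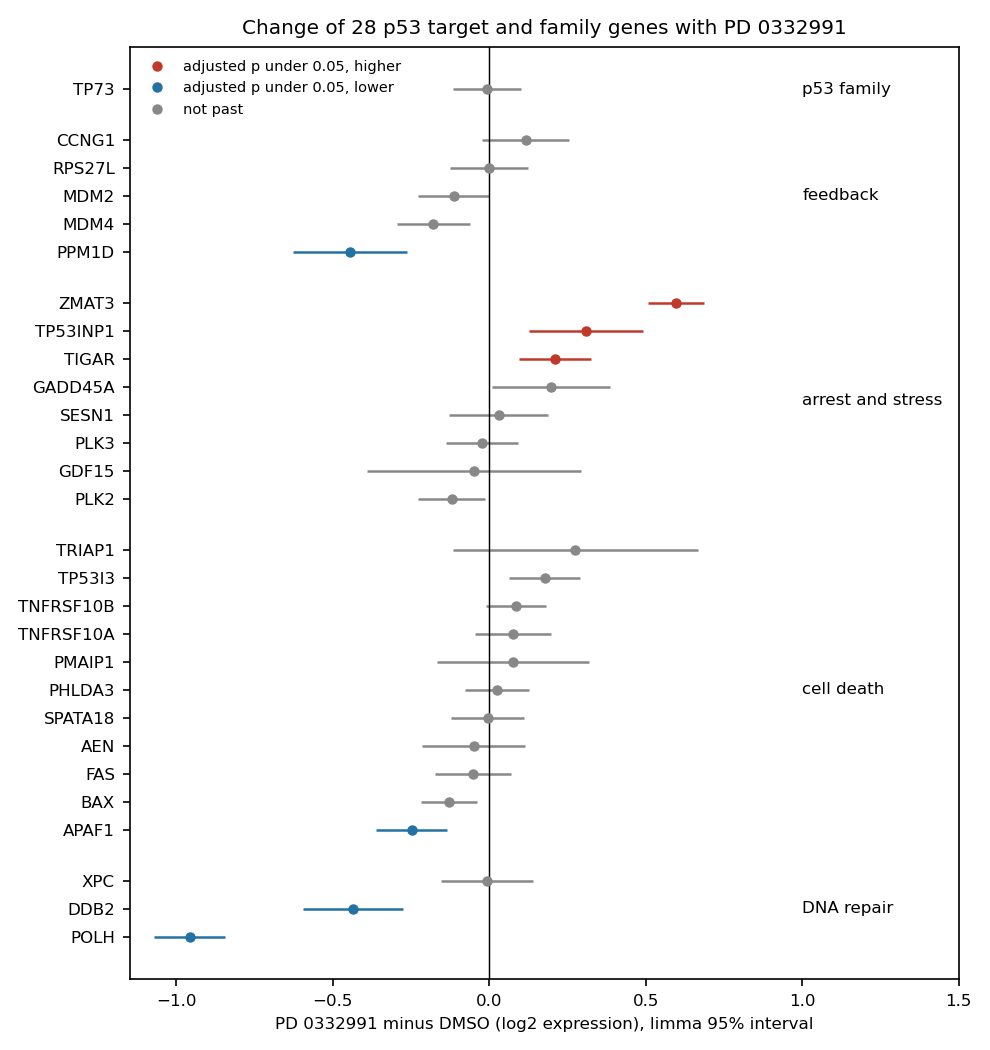
Log2 change of each of the 28 genes (x axis, PD 0332991 minus DMSO) with its 95% interval from limma, grouped by role down the page. Red marks the 3 genes that rose, blue the 4 that fell, and grey the 21 that did not pass; 14 of the grey intervals lie wholly within 0.25 of zero.

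The strongest change of the set was the fall of POLH, which encodes DNA polymerase eta, the polymerase that copies past ultraviolet damage. Its level was 7.19, 7.18 and 7.24 on the PD 0332991 arrays and 8.15, 8.10 and 8.22 on the DMSO arrays (log2 expression). Every treated array lay below every vehicle array, with a gap between the groups wider than the spread within either. The log2 change was -0.96 ± 0.048 (SE), or 1.94-fold lower, with a limma adjusted p of 3.82e-05. Over all genes tested, 207 genes called lower fell further. POLH remained past the threshold in all 14 alternative settings, with changes of -0.99 to -0.93. In bulk RNA, fewer cells making a transcript and less of it in each cell cannot be told apart, and the markers of cycling cells fell in the same arrays; their part in the fall of POLH was not tested.

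DDB2 was the other repair gene that fell. It encodes the protein that binds ultraviolet lesions and starts their repair in chromatin, and in human cells it is a textbook p53 target. DDB2 read 8.27, 8.25 and 8.37 with PD 0332991, against 8.80, 8.60 and 8.79 with DMSO. The groups did not overlap, and DMSO array 2 was the vehicle array nearest to the treated ones. DDB2 was 1.35-fold lower (log2 change -0.43 ± 0.067 SE, limma adjusted p = 0.00799). XPC, which recognises distorted DNA in the same excision pathway, read 6.85, 6.86 and 6.68 with PD 0332991 and 6.83, 6.84 and 6.74 with DMSO. Its arrays overlapped fully, and its log2 change of -0.0069 had a 95% interval of -0.15 to 0.14. XPC minus DDB2, the difference between the changes of these partners, was 0.43 (95% interval 0.08 to 0.78). This interval came from a linear model and was not adjusted over pairs. The two-sided exact permutation p was 0.1, the smallest that 3 arrays against 3 can give, and 0.4 when adjusted over the 4 pairs of genes compared. With that limit the permutation test could not decide whether the changes differ.

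RefSeq start-site windows are shown for POLH, ZMAT3 and DDB2, the genes of the set with the smallest adjusted p. Each window runs from 250 bases before to 50 bases after a start, in build GRCh38.p14, and is printed 5′ to 3′ on the gene's strand. POLH lies at chr6:43575935-43576234 on the plus strand. ZMAT3 lies at chr3:179071760-179072059 on the minus strand, and the DDB2 window, the second that RefSeq gives for that gene, at chr11:47214724-47215023 on the plus strand. Capitals mark matches to the p53 decamer consensus or to the letters TTTGAA, the cell cycle homology region (CHR) found in many late cell cycle genes, on either strand.
POLH: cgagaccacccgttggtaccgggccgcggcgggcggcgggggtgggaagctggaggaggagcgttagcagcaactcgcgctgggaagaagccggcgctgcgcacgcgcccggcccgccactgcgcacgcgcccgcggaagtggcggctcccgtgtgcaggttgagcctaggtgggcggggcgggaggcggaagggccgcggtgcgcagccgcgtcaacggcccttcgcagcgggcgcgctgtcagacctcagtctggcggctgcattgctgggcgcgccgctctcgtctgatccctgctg
ZMAT3: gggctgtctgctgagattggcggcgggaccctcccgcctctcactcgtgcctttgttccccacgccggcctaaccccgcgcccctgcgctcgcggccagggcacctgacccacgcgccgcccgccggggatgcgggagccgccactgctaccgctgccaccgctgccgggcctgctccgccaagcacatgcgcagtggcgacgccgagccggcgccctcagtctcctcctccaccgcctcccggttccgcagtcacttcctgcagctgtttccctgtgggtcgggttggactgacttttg
DDB2: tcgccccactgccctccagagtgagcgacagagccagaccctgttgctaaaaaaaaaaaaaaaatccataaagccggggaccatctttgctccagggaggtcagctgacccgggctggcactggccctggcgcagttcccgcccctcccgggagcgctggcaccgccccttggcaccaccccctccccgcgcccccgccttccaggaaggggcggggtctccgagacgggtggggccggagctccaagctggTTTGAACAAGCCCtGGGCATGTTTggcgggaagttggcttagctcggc

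The DDB2 window holds a pair of p53 decamers, at bases 6 to 15 and 17 to 26 counted from the start base as 1, with 1 base between them. The CHR letters at bases 3 to 8 share 3 bases with the first decamer. A pair of decamers no more than 13 bases apart was present in 10 of 35116 windows of that length in the RefSeq table (0.0285%), and among the 35 windows of the set, which cover 23 of its 28 genes, in the 1 of DDB2. DDB2 was in the set as a known p53 target, so this pair is no independent result. A single decamer was present in 6.63% of all windows and in 6 windows of the set (17.1%), those of AEN, DDB2, FAS, PLK2, RPS27L and SESN1. Of these 6 genes DDB2 alone passed the threshold, which 11.3% of all genes did. The set was chosen as p53 targets, so this share of windows is no independent result either. The E2F letters TTTCCCGC, TTTGGCGC, TTTCGCGC or TTTGCCGC stood in 3.31% of all windows and in 5 windows of the set (14.3%). These were windows of AEN, MDM2 (windows 1 and 2), TP73 and XPC, none of which passed. The shares of windows were not compared by a test. With 11.3% of all genes called, counts of calls among so few genes are no result about the decamer or these letters. Looser E2F letters were not searched. The printed DDB2 window holds TTTGGCGG, starting within its second decamer, which differs from TTTGGCGC in the last letter. TTTGAA was present in 15.2% of all windows and in 14.3% of those of the set. These were windows of DDB2, FAS, MDM4 and ZMAT3, for ZMAT3 the second window rather than the one printed. The POLH window holds none of these letters. Such matches describe the letters of these windows only, and known p53 sites also lie elsewhere, for instance in introns.

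ZMAT3, an RNA-binding zinc finger protein that acts in splicing and restrains growth, showed the largest rise. It read 7.18, 7.20 and 7.17 with PD 0332991, against 6.58, 6.58 and 6.59 with DMSO. The arrays of each group lay within 0.0296 (PD 0332991) and 0.0128 (DMSO) of one another, so the difference was far larger than the spread. ZMAT3 was 1.51-fold higher (log2 change 0.60 ± 0.038 SE, limma adjusted p = 0.000130) and passed in all 14 alternatives, at 0.57 to 0.60. Among genes called higher, 91 rose further.

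A pair of smaller rises shared the arrest and stress group with ZMAT3. TP53INP1, a stress protein that acts in autophagy and in the response to p53, read 5.42, 5.46 and 5.60 with PD 0332991 and 5.28, 5.06 and 5.22 with DMSO. TIGAR, which lowers fructose-2,6-bisphosphate and so diverts sugar away from glycolysis, read 7.85, 7.83 and 7.96 with PD 0332991, against 7.66, 7.67 and 7.69 with DMSO. In both genes the groups were separate, TP53INP1 by a gap narrower than the spread of its vehicle arrays. TP53INP1 was 1.24-fold higher (log2 change 0.31 ± 0.076 SE, limma adjusted p = 0.0471), and TIGAR 1.16-fold higher (0.21 ± 0.048 SE, limma adjusted p = 0.0372). Both calls were lost whichever array was left out, with adjusted p of 0.0562 to 0.118 for TP53INP1 and 0.0604 to 0.113 for TIGAR in limma, and also after quantile normalization or centring of the arrays (0.0986 and 0.0976 for TP53INP1, 0.0645 and 0.147 for TIGAR).

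The remaining 5 genes of the arrest and stress group did not pass. GADD45A, a stress sensor that binds CDK1 and PCNA, had 10.07, 9.78 and 10.02 with PD 0332991 and 9.74, 9.80 and 9.74 with DMSO. PD 0332991 array 2 lay within the vehicle range while the other two treated arrays lay above it. The change was 0.20 (95% interval 0.01 to 0.39, limma adjusted p = 0.187), and without PD 0332991 array 2 it was 0.29 with a limma adjusted p of 0.0260. The stress kinase PLK2 had 9.09, 9.15 and 9.17 with PD 0332991 and 9.21, 9.28 and 9.28 with DMSO, without overlap, and a change of -0.12 (limma adjusted p = 0.158). Its relative PLK3, at a level below the median of genes, had a change of -0.02 (95% interval -0.14 to 0.09). PLK2 minus PLK3 came to -0.10 (95% interval -0.26 to 0.07, exact permutation p = 0.2, or 0.4 adjusted over the 4 pairs), so a difference between these kinases was not resolved. It was -0.05 without DMSO array 3, -0.06 without PD 0332991 array 1 and -0.03 after quantile normalization.

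GDF15, a secreted stress cytokine, depended on 1 vehicle array. It had 5.87, 5.83 and 5.999 with PD 0332991 and 6.29, 5.70 and 5.86 with DMSO. DMSO array 1 was the highest of all 6, and the change was -0.05 with it and 0.12 without it (limma adjusted p = 0.890 and 0.459). SESN1, an inhibitor of growth signalling through mTORC1, had a change of 0.03 (95% interval -0.13 to 0.19) and lay below the median level of all genes.

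**Figure D2:**
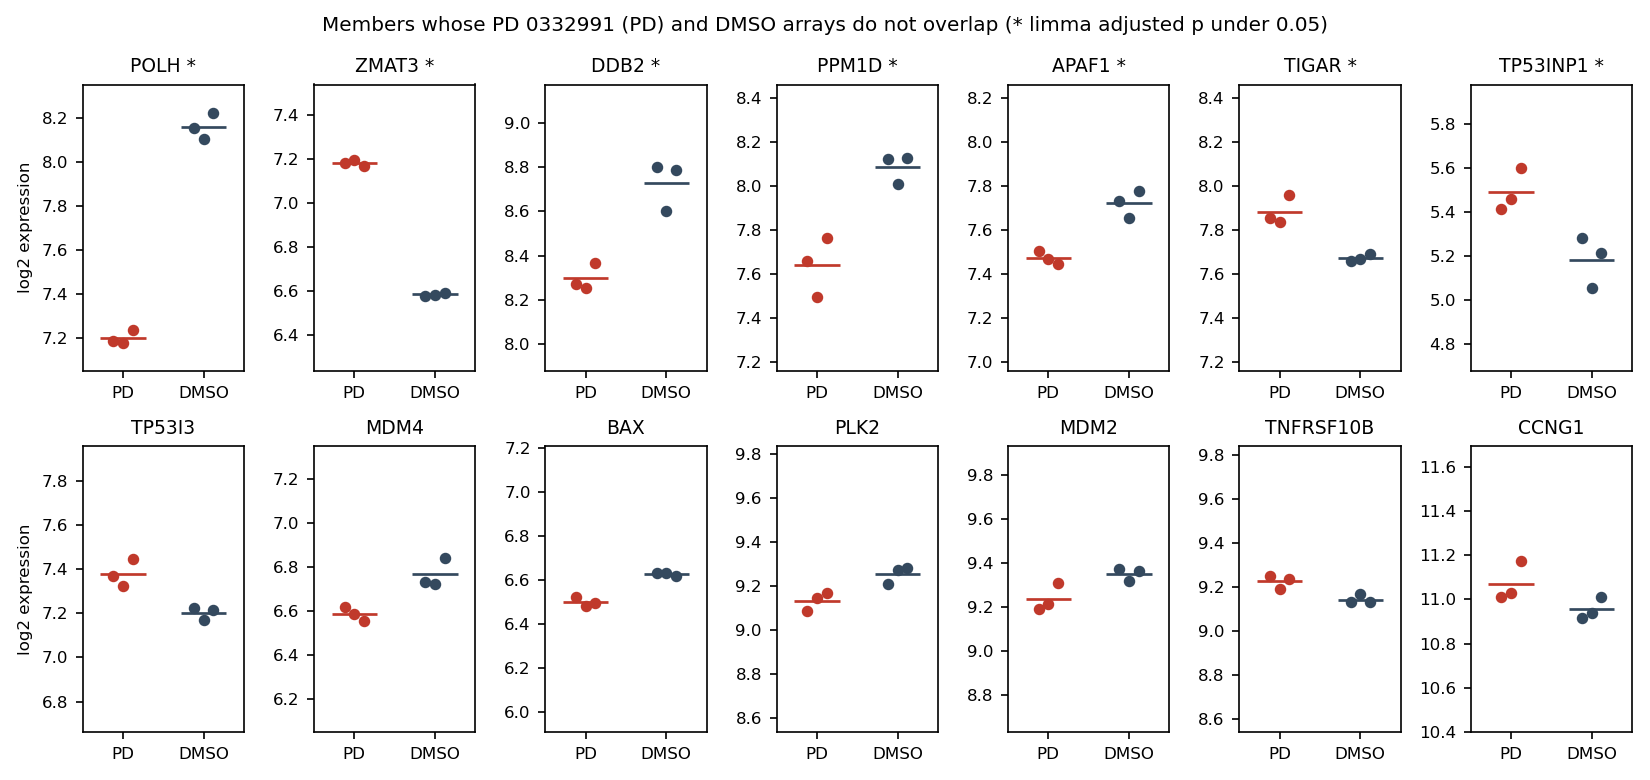
Log2 expression (y axis, 1.3 units in every panel) on each array for the 14 genes whose groups did not overlap, PD 0332991 in red on the left of each panel and DMSO in dark blue on the right, with bars at the group means. The 7 genes with an asterisk passed the threshold, and POLH has the widest gap.

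Among the genes that feed back on p53, PPM1D fell. It encodes the phosphatase Wip1, which dephosphorylates p53 and the kinases that activate it. PPM1D read 7.66, 7.49 and 7.77 with PD 0332991 and 8.12, 8.01 and 8.13 with DMSO. The groups were separate, though the treated arrays were spread over 0.27. PPM1D was 1.36-fold lower (log2 change -0.44 ± 0.077 SE, limma adjusted p = 0.0124), and stayed past the threshold whichever array was left out (limma adjusted p of 0.0131 to 0.0483). It missed the threshold only when all transcript clusters were tested together (0.0626).

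MDM2 and MDM4, the paired inhibitors of p53, were both slightly lower without passing. MDM2, the ubiquitin ligase, had 9.19, 9.21 and 9.31 with PD 0332991, against 9.37, 9.32 and 9.36 with DMSO. MDM4, which holds p53 inactive together with MDM2, had 6.62, 6.58 and 6.55 with PD 0332991, against 6.73, 6.72 and 6.84 with DMSO. In neither gene did the groups overlap. Changes were -0.11 for MDM2 (95% interval -0.23 to 0.0002, limma adjusted p = 0.209) and -0.18 for MDM4 (-0.30 to -0.06, limma adjusted p = 0.0682). MDM4 passed, at an adjusted p of 0.0391 in limma, when genes of low level were left out of the fit. MDM2 minus MDM4 was 0.06 (95% interval -0.11 to 0.24, exact permutation p = 0.5, or 0.667 adjusted over the 4 pairs), and a single array moved it, to 0.013 without PD 0332991 array 3, 0.03 without DMSO array 3 and 0.10 without PD 0332991 array 1. After quantile normalization it was 0.11. CCNG1, cyclin G1, which steers a phosphatase to MDM2, had 11.01, 11.03 and 11.18 with PD 0332991 and 10.92, 10.94 and 11.01 with DMSO. The lowest treated and the highest vehicle array of CCNG1 were practically equal, and the change was 0.12 (limma adjusted p = 0.299). RPS27L, a ribosomal protein relative that binds MDM2, had a change of -0.0004 (95% interval -0.13 to 0.12).

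Among the 11 death genes measured, 1 passed the threshold (9.09%), a share near the 11.3% of all genes. APAF1, the scaffold of the apoptosome and in human cells also a known E2F1 target, fell. It read 7.51, 7.47 and 7.45 with PD 0332991, against 7.73, 7.66 and 7.78 with DMSO, without overlap. APAF1 was 1.19-fold lower (log2 change -0.25 ± 0.048 SE, limma adjusted p = 0.0187). The call was lost without PD 0332991 array 2 (limma adjusted p = 0.0624) or 3 (0.0598) and without DMSO array 1 (0.0637) or 3 (0.0622).

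A pair of death genes came near the threshold in opposite directions. TP53I3, a quinone oxidoreductase linked to oxidative stress, had 7.37, 7.32 and 7.45 with PD 0332991 and 7.23, 7.17 and 7.22 with DMSO. BAX, which forms pores in the mitochondrial outer membrane, had 6.52, 6.48 and 6.496 with PD 0332991 and 6.63, 6.63 and 6.62 with DMSO. Neither overlapped between groups. TP53I3 had a change of 0.18 (95% interval 0.06 to 0.29, limma adjusted p = 0.0638, and 0.0365 with genes of low level left out) and BAX one of -0.13 (-0.22 to -0.04, limma adjusted p = 0.0843).

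No death receptor passed. TNFRSF10A and TNFRSF10B, the receptors of the ligand TRAIL, had changes of 0.08 (95% interval -0.05 to 0.20) and 0.08 (-0.01 to 0.18). TNFRSF10B read 9.25, 9.19 and 9.24 with PD 0332991, all above its 9.13, 9.16 and 9.13 with DMSO, and its limma adjusted p was 0.273. TNFRSF10A overlapped between the groups. Their changes differed by -0.0085 (TNFRSF10A minus TNFRSF10B, 95% interval -0.09 to 0.08, exact permutation p = 0.8), which bounds any difference but does not show that they act alike. FAS, the receptor of FAS ligand, had a change of -0.05 (-0.17 to 0.07) at a level below the median of genes.

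PMAIP1, which encodes the BH3-only protein NOXA, had 10.42, 10.24 and 10.47 with PD 0332991 and 10.26, 10.50 and 10.14 with DMSO. The vehicle arrays were spread over 0.35 and enclosed all treated values, with a change of 0.07 (95% interval -0.17 to 0.32). TRIAP1, a small mitochondrial protein that protects from apoptosis, had 8.80, 8.14 and 8.30 with PD 0332991 and 8.26, 8.02 and 8.14 with DMSO. PD 0332991 array 1 stood apart from the other treated arrays, and TRIAP1 had the widest interval of the set, -0.12 to 0.67 around a change of 0.27. Without that array its change was 0.08 (limma adjusted p = 0.695), against a limma adjusted p of 0.392 with it. PHLDA3, an inhibitor of AKT (0.02, interval -0.08 to 0.13), the nuclease AEN (-0.05, -0.21 to 0.11) and SPATA18, of mitochondrial quality control (-0.0052, -0.12 to 0.11), overlapped between groups, and the sign of PHLDA3 turned when arrays were centred on their medians (-0.0036).

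TP73, the p53 relative that was analysed, did not differ measurably. It read 4.20, 4.15 and 4.22 with PD 0332991 and 4.17, 4.18 and 4.26 with DMSO. These values overlap and lie low on the array, below the level of most genes. The log2 change was -0.0090 with a 95% interval of -0.12 to 0.10 (limma adjusted p = 0.939). TP73 is itself known as an E2F1 target, and of the 4 measured genes of the set with that description (TP73, APAF1, PMAIP1 and TP53INP1) 1 rose, 1 fell and the median change was 0.03. With 11.3% of all genes called, groups of so few genes are given as counts only. Of 3 genes also known to respond to ATF4 or CHOP, the transcription factors of the integrated stress response (TNFRSF10B, GDF15 and PMAIP1), 0 passed at a limma adjusted p under 0.05 and 0 had an unadjusted p under 0.05, with a median change of 0.07.

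**Figure D3:**
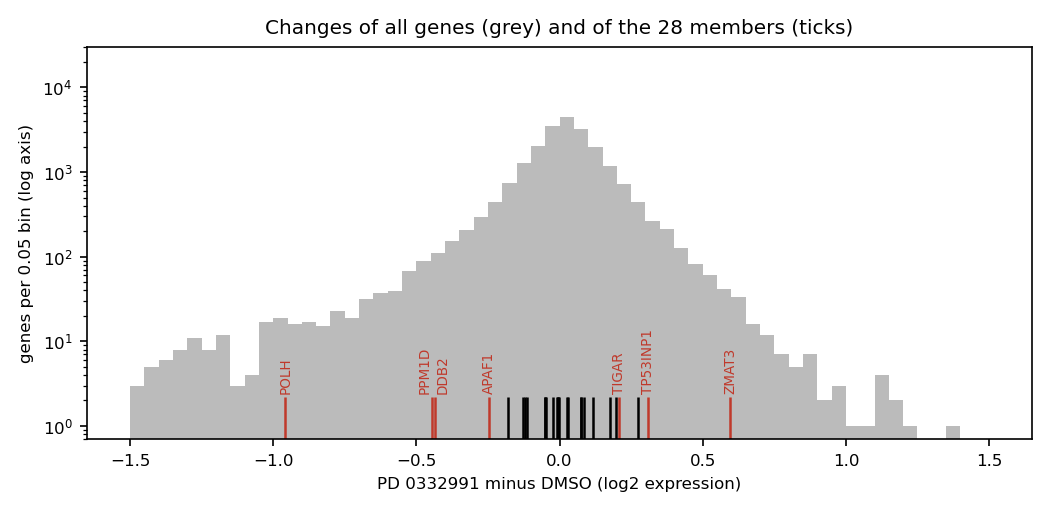
Histogram of the log2 change (x axis, PD 0332991 minus DMSO) of all genes tested, with genes per 0.05 bin on a log y axis, and a tick for each of the 28 genes, red where it passed the threshold; 116 genes lie outside the plotted range of -1.5 to 1.5. POLH at -0.96 and ZMAT3 at 0.60 are the outermost ticks.

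Separation of the arrays was also counted. In 14 of the 28 genes (50.0%) all 3 PD 0332991 arrays lay on one side of all 3 DMSO arrays, against 29.9% of all genes. Of these, 6 were higher and 8 lower with PD 0332991, and 7 passed the limma threshold. The 7 that were separate without passing were TP53I3, MDM4, BAX, PLK2, MDM2, TNFRSF10B and CCNG1, with changes no larger than 0.18 in size. CCNG1 counts as separate only by the last deposited decimal of its nearest arrays. With 6 of the 28 below the median of gene means, the set was brighter than genes at large. No share without overlap was counted over brighter genes alone. Among the 21 genes that did not pass, 14 had a 95% interval lying wholly within 0.25 of zero, which bounds the change of the measured signal. Of these, SPATA18, TP73, FAS, SESN1 and PLK3 lay below the median of gene means. SPATA18 and TP73 were the dimmest, with 14.7% and 28.3% of genes dimmer. Whether such signals exceed background was not tested, so their intervals need not bound a change of transcript.

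Other genes activated by p53, 37 measured of a list of 40, were mixed as well: 5 rose, 2 fell and 30 did not pass, with a median change of 0.02. Calls made up 18.9% of this list, against 11.3% of all genes. Higher calls were 13.5%, against 5.57%, and lower calls 5.41%, close to the 5.74% of all genes. With genes of low level left out, 5 of this list rose and 2 fell, while 22.0% of all genes in that fit were called. The dimmest genes of the list, TP53AIP1 and CDIP1 among them, also left that fit, so these counts are not out of 37. CDKN1A, encoding the kinase inhibitor p21 and one of the best known p53 targets, had 6.86, 6.68 and 6.71 with PD 0332991 and 6.81, 6.84 and 7.06 with DMSO (change -0.15, 95% interval -0.35 to 0.04, limma adjusted p = 0.339). DMSO array 3 was its highest, and without it the change of CDKN1A was -0.07. SFN, encoding 14-3-3 sigma, a brake on entry into mitosis, fell. It read 12.45, 12.65 and 12.55 with PD 0332991 and 13.03, 13.18 and 13.01 with DMSO, 1.44-fold lower (limma adjusted p = 0.00441). SERPINB5, the protease inhibitor relative maspin, rose by 0.21 on the log2 scale, CYFIP2, a regulator of actin, by 0.22, the carboxylesterase CES2 by 0.36, the ribonucleotide reductase subunit RRM2B by 0.26 and the metal reductase STEAP3 by 0.24. IER5, named after its value was seen, was the other gene that fell (-0.30, limma adjusted p = 0.0478). SFN passed in all 14 alternatives, whereas each of the 5 rises and IER5 passed in 1 of the 6 fits with an array left out, so that 0 to 2 of the list rose in those fits.

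Regulators of p53 itself, 19 measured of 23, had 2 genes higher and 2 lower, with a median change of -0.02. That was 21.1% called, against 11.3% of all genes, from 4 genes. Of the 19 regulators, 0 lay below the median of gene means. With genes of low level left out, 3 regulators were higher and 4 lower, while 22.0% of all genes in that fit were called. CHEK1, the replication checkpoint kinase, fell to 10.27, 10.36 and 10.33 with PD 0332991, against 10.77, 10.84 and 10.91 with DMSO (log2 change -0.52, limma adjusted p = 0.00134), and passed in all 14 alternatives. ATM, the kinase that signals DNA breaks, rose by 0.22 (limma adjusted p = 0.0247), and TP53RK, a kinase named for phosphorylating p53, by 0.20 (0.0449). SIRT1, which deacetylates p53, fell by 0.32 on the log2 scale (limma adjusted p = 0.0480). With single arrays left out, ATM passed without PD 0332991 array 1 or without DMSO array 3, TP53RK and SIRT1 in none of the 6 fits.

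**Figure D4:**
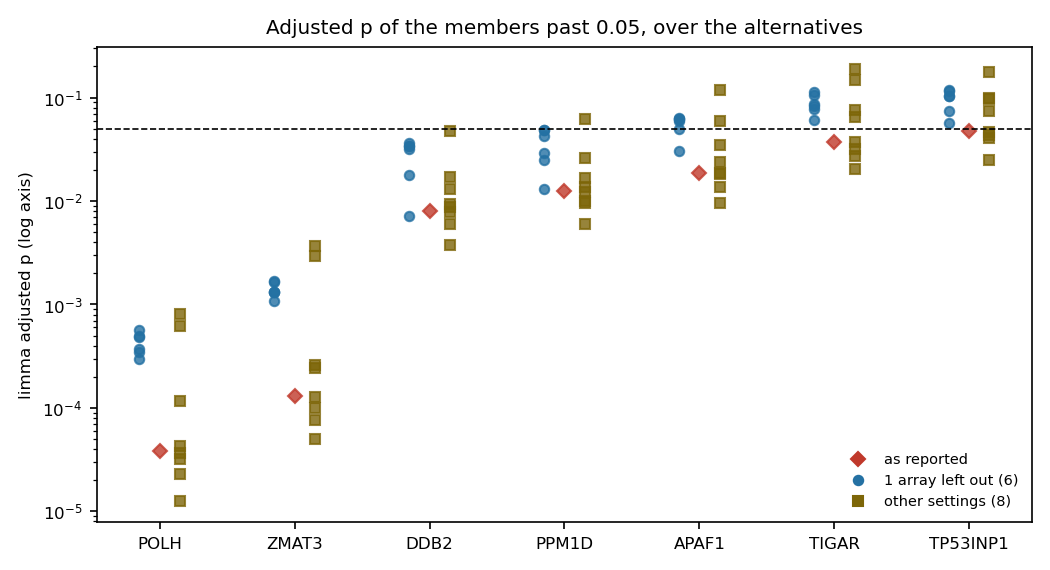
Limma adjusted p (log y axis) of the 7 genes past the threshold, as reported (red diamonds), with each of the 6 arrays left out in turn (blue circles) and under 8 other settings (brown squares), with a dashed line at 0.05. POLH, ZMAT3 and DDB2 stay under the line throughout, PPM1D crosses it once, and TIGAR and TP53INP1 lie above it for every array left out.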

How the data were processed

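RNA of 6 PC3-ML samples was hybridised to 6 Affymetrix arrays, 3 per group. The deposited values, 1 per array and transcript cluster, are on a log2 scale judging by their range, 2.04 to 19.93; the log base is not stated. The authors used Affymetrix Expression Console (named in the submitters' processing notes, no version given), with background correction and normalization not given in the sources used here. Of 65535 clusters, 22685 named 1 gene; symbols were updated through Entrez identifiers for 20487 of them, and a gene with several clusters was represented by the one of highest mean over the 6 arrays, which gave 22375 genes. Each gene of the set had 1 such cluster.

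The fit used R 4.3.3 and limma 3.58.1 (lmFit and eBayes, two-sided, Benjamini-Hochberg over all genes, adjusted p under 0.05, no array dropped). The fit was tested on simulated data. Of 6 planned pairs 4 could be tested by exact permutation over the arrays, while TP63 with TP73 and BBC3 with PMAIP1 could not. The 95% intervals of pairs came from a linear model and were not adjusted. The set, role groups, lists and alternatives were chosen with earlier results of these data known. All 28 genes are described; in the other lists the 6 with the smallest p past the threshold are named, with CDKN1A and the cycling markers whatever their values. Promoter windows are RefSeq's, build GRCh38.p14; the DDB2 and ZMAT3 windows printed were picked from 2 each after the search for motifs. Alternatives were a replicate block, quantile normalization, centring each array on its median over all clusters and leaving out dim genes. Others were averaging clusters, testing all clusters, a robust trend, array weights and leaving out each array. The labels do not say what a shared replicate number means, so the numbers were not treated as pairs. Deviations from the group means correlated over genes at 0.0215, -0.0065 and 0.0368 between arrays sharing a number, which does not settle whether they are pairs. No slide or scan date was at hand to test as a batch.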

Additional observations from a re-analysis of the deposited data

How the results depend on the processing

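POLH, ZMAT3, DDB2, SFN and CHEK1 passed in all 14 alternatives, and PPM1D in 13. With single arrays left out, genes called numbered 1602 to 1857 (2531 with all arrays), genes called higher 716 to 815 (1247) and lower 886 to 1042 (1284). In the set, 1 to 2 were then higher (3 with all arrays) and 3 to 4 lower (4). Of other p53-activated genes 0 to 2 were higher (5) and 1 to 2 lower (2), and of p53 regulators 0 to 1 were higher (2) and 1 lower (2); the fits hold fewer arrays. The median change of the set ranged from -0.0176 to 0.016.

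With the replicate number as a block, genes called higher numbered 786, and 1 gene of the set, 2 other p53-activated genes and 0 regulators were higher, with 1 other p53-activated gene lower. TIGAR (limma adjusted p = 0.0759), TP53INP1 (0.0749) and APAF1 (0.0599) lost their calls under the block. Whether the replicate numbers mark pairs is not stated. Quantile normalization left 1 gene of the set higher and 1 regulator lower. Centring arrays left 759 genes higher, 1 of the set, 1 other p53-activated gene and 0 regulators, with 1 regulator lower. Leaving out dim genes gave 4 regulators lower. With all clusters tested, so that the adjustment covered 65535 values, 1482 were called and 547 higher; 1 gene of the set was higher and 2 lower, 0 other p53-activated genes were higher and 1 lower, and 0 regulators were higher and 1 lower. Beyond the size of the fit, the cause of these shifts was not tested.

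Changes near zero turned sign. PHLDA3 was -0.0036 after centring, and with array weights XPC was 0.0050 and SPATA18 0.0031. With single arrays left out, the lowest and highest changes were -0.027 and 0.019 for TP73, -0.030 and 0.071 for SESN1, -0.17 and 0.12 for GDF15, -0.0036 and 0.17 for PMAIP1, -0.037 and 0.051 for XPC, -0.053 and 0.0016 for PLK3, -0.040 and 0.027 for SPATA18 and -0.034 and 0.041 for RPS27L. TNFRSF10A minus TNFRSF10B ranged from -0.0325 to 0.0108.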
